A study of Homo sapiens with 8 samples.

Results

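Transfection of miR-140-3p into T24 cells was read on 1 two-colour Agilent array, out of 8 arrays in the series. The array was chosen by its label, not by any measured value. T24 is a line from a human bladder carcinoma. Cy5 carried RNA of T24 cells transfected with miR-140-3p using Lipofectamine RNAiMAX, and Cy3 carried RNA of T24 cells that the labels call mock and list as without transfection. The dose and the time of harvest are not given in the sources used here, and the dyes were not swapped. Of 43317 genes on the array, 17533 were well above background in both channels and are called measured below. Of the other arrays, 1 carried miR-140-5p in T24. The renal cancer line 786-O was given miR-532-3p on 1 array and miR-532-5p on another, the prostate cancer line C4-2 was given miR-199-3p, and the prostate cancer line PC3 was given miR-125b-1-3p or, for 24 h and for 48 h, the small molecule bisamide. Treated RNA was in Cy5 and mock RNA in Cy3 throughout. The 6 arrays of these lines share no cells with the miR-140-3p array. They show how far a probe moves with the dye, another treatment and another line together, and these cannot be told apart. The miR-140-5p array also carries mock RNA of T24, so its values are printed side by side and not correlated with those of miR-140-3p. The raw mock signals of both T24 arrays were close, with a median log2 ratio of 0.039 and an SD of 0.094 over 16992 genes. A ratio shared by both T24 arrays is therefore not a pair of independent readings. With 1 array in each group there was no replicate and no test was made. Fewer cells of a kind and less RNA in each cell cannot be told apart in these RNA pools.

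A microRNA (miRNA) is a short RNA that guides Argonaute proteins to messenger RNAs. Pairing rests mainly on the seed, the bases near the 5′ end of the miRNA, and usually lowers the level of the paired transcript. The miR-140 hairpin lies in an intron of WWP2, which encodes a ubiquitin ligase, and is best known from cartilage. Both of its arms give a mature strand, and the strands have different seeds. The mature sequences below are those of RefSeq (GRCh38.p14), written 5′ to 3′ with the seed (bases 2 to 8) in capitals. They are shown because the seed sets which letters were searched in the probes. In the genome miR-140-3p lies at chr16:69933142-69933162 and miR-140-5p at chr16:69933103-69933124, both on the plus strand.
miR-140-3p: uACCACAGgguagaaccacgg
miR-140-5p: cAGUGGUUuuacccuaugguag

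A transcript pairs with the miR-140-3p seed where it holds CTGTGGT, and a longer match, CTGTGGTA, adds an A opposite the first base of the miRNA. The array's 60-base probes have the sequence of the transcript, so a match in a probe is a match in the RNA that was measured. The rest of each transcript was not read. The following windows come from the probes of genes with low ratios on this array, with the match in capitals, and with the probe's position in GRCh37. Of these, BCAS2 was picked after its values were seen.
NEURL3 (chr2:97163419-97163478, minus strand): tgttgtcaCTGTGGTAatttcctt
KIAA1147 (chr7:141356648-141356707, minus strand): attttgttCTGTGGTAc
BCAS2 (chr1:115110567-115110626, minus strand): gtaggctgCTGTGGTAattctatt
DSTN (chr20:17588567-17588626, plus strand): taggacacCTGTGGTAtctttaat
CDCA8 (chr1:38175149-38175208, plus strand): agggctctCTGTGGTAtttgttat
ARF5 (chr7:127231693-127231752, plus strand): taaatttgCTGTGGTttg
ZNF777 (chr7:149128486-149128545, minus strand): tttggataCTGTGGTtct
ZNF226 (chr19:44679287-44679346, plus strand): cttctgggCTGTGGTtgtaaact

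The mock channel was set against markers of the labelled cell type. Of 15 urothelial markers, 6 were well above background in mock, with raw Cy3 signals between 19.8 and 443 over the list. KRT7, a keratin of simple and transitional epithelium, had the highest signal, 443, and PPARG and ELF3, regulators of urothelial differentiation, had 129.6 and 107. GATA3, UPK1B, UPK2, UPK3A, KRT5, KRT20 and TP63 were not well above background. The mesenchymal filament VIM gave 9707 and the keratin KRT18 gave 4956. The RNA therefore carried few of the defining markers of differentiated urothelium. Of 6 renal markers 4 were above background, with PAX2 at 619 and PAX8 at 423. The prostate marker KLK3 was not well above background.

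All ratios below are log2 ratios of miR-140-3p over mock after background correction with an offset of 50 and loess normalisation, and all intensities are normalised and on a linear scale. The offset makes ratios of dim genes smaller. The median over all measured genes was 0.017, and 45.4% of measured genes were below 0. For 300 probes printed as several spots, the SD of the ratio over spots was 0.020 to 0.089 with a median of 0.046, which covers the spread within the array and not that between cultures. A ratio below −1.0 was found for 15 genes, 0.0856% of those measured, and a ratio above 1.0 for 16 genes, 0.0913%. At 0.5 in size there were 191 lower genes (1.09%) and 175 higher genes (0.998%). On the miR-140-5p array 57 genes were below −1.0 and 21 above 1.0. In the plot of ratio against intensity the genes past 1.0 lie in the lower and middle part of the range.

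**Figure D1:**
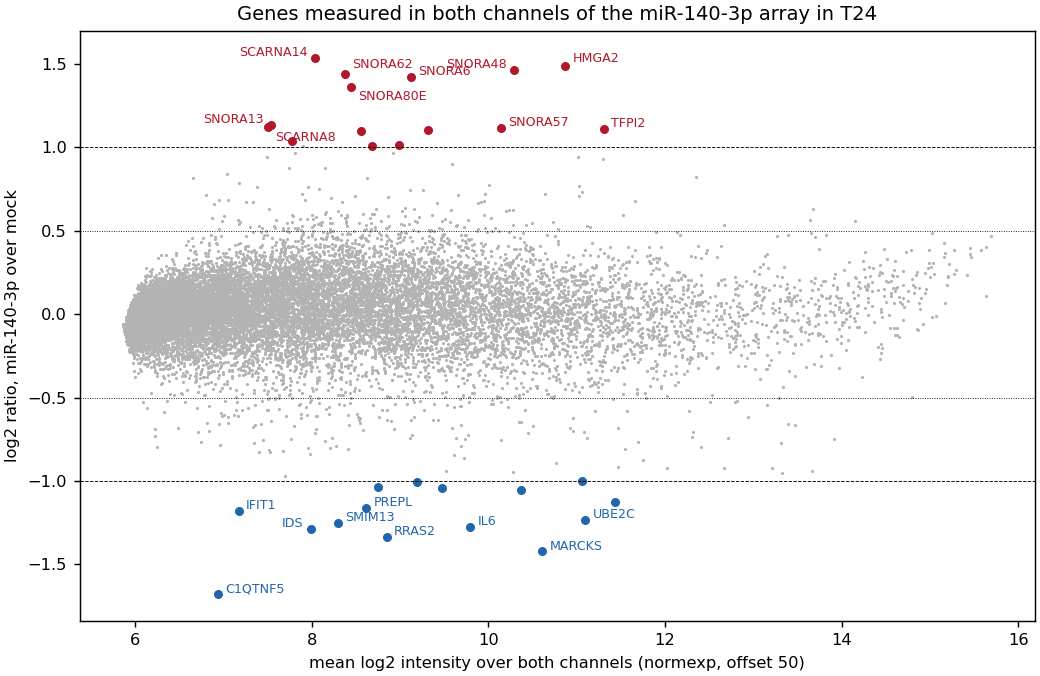
Each grey point is 1 of 17533 measured genes, with the mean log2 intensity of both channels on the horizontal axis and the log2 ratio of miR-140-3p over mock on the vertical axis. Blue and red points are the 15 lowest and the 15 highest named genes, and lines mark 0.5 (dotted) and 1.0 (dashed) in either direction; 17167 genes lie between the dotted lines.

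To separate ratios that recur on other arrays from those that do not, each gene was set against the 6 arrays of other lines. Among 16385 genes measured on at least 3 of them, 135 were below −0.5 and below every one of those arrays (0.824%), and 122 were above 0.5 and above every one (0.745%). C1QTNF5, a secreted C1q-domain protein, had the lowest ratio, −1.68, but also −1.84 with miR-140-5p and −1.93 to −0.68 on the other lines, so its ratio was low on every array of the series. ISG15 lay within the range of the other lines as well. The other 13 genes below −1.0 lay under the value on every other-line array that measured them.

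MARCKS, a membrane-bound substrate of protein kinase C that binds actin and calmodulin, had an intensity of 2027 in mock and 756 with miR-140-3p, a ratio of −1.42 (probe chr6:114182911-114182970). Its ratio was −0.21 with miR-140-5p and −0.25 to 0.68 on the other lines. RRAS2, a small GTPase of the RAS family, went from 578 in mock to 229, a ratio of −1.33. Its second probe, which overlaps the first, gave −1.31, while miR-140-5p gave −0.08 and the other lines −0.57 to 0.28. Both genes were thus lower on the miR-140-3p array than on the other 7. IDS, the lysosomal iduronate sulfatase, was at 325 in mock and 133 in transfected cells, a ratio of −1.29, against 0.74 with miR-140-5p. Its 3 other probes, with mock intensities of 67 to 98, gave −0.25 to −0.01, so the probes disagree.

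Several more of the 15 low genes have known roles. UBE2C, the ubiquitin-conjugating enzyme of the anaphase-promoting complex, was at 2737 in mock and 1163 with miR-140-3p, a ratio of −1.23, beside 0.28 with miR-140-5p. DAZAP2, an adaptor protein, was at 3453 and 1584 (−1.12), and lay between 0.15 and 0.50 on the other lines. SAT1, the rate-limiting enzyme of polyamine breakdown, was at 2432 and 1214, and its second bright probe had a ratio of −1.07. PREPL, a serine hydrolase, had −1.16 by one probe and −0.53 by the other. SMIM13, a small membrane protein, had −1.25, TMEM245 −1.04 and ZNF569, a zinc finger protein, −1.01. Each of these 3 genes had at least 1 dimmer probe between −0.18 and −0.08. Ranked by the difference from the median of the other lines, MARCKS came first at −1.81, followed by RRAS2 at −1.49, IDS at −1.45 and DAZAP2 at −1.41. That ranking also brought in NEK9, a kinase of mitotic spindle assembly, with a ratio of −0.81 and a difference of −1.16. ITGB4, the integrin of hemidesmosomes, entered with a ratio of only −0.15, because 3 other arrays with a measured value had a median of 1.24.

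ACTL8, an actin-like gene of testis, was well above background in mock (normalised intensity 128) and not in transfected cells (47.7). It was at least 2.40-fold lower with miR-140-3p, a bound that is open to dye bias because dyes were not swapped. The fitted ratio of the ACTL8 probe was low on every array of the series, at −1.42 here, −1.96 with miR-140-5p and −1.80 to −1.03 on the other lines, where it was measured in both channels on 2 of 6. Of 95 genes above background in mock alone it was the only one with a bound of 2-fold or more. None of the 3556 genes above background in the transfected channel alone reached such a bound.

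**Figure D2:**
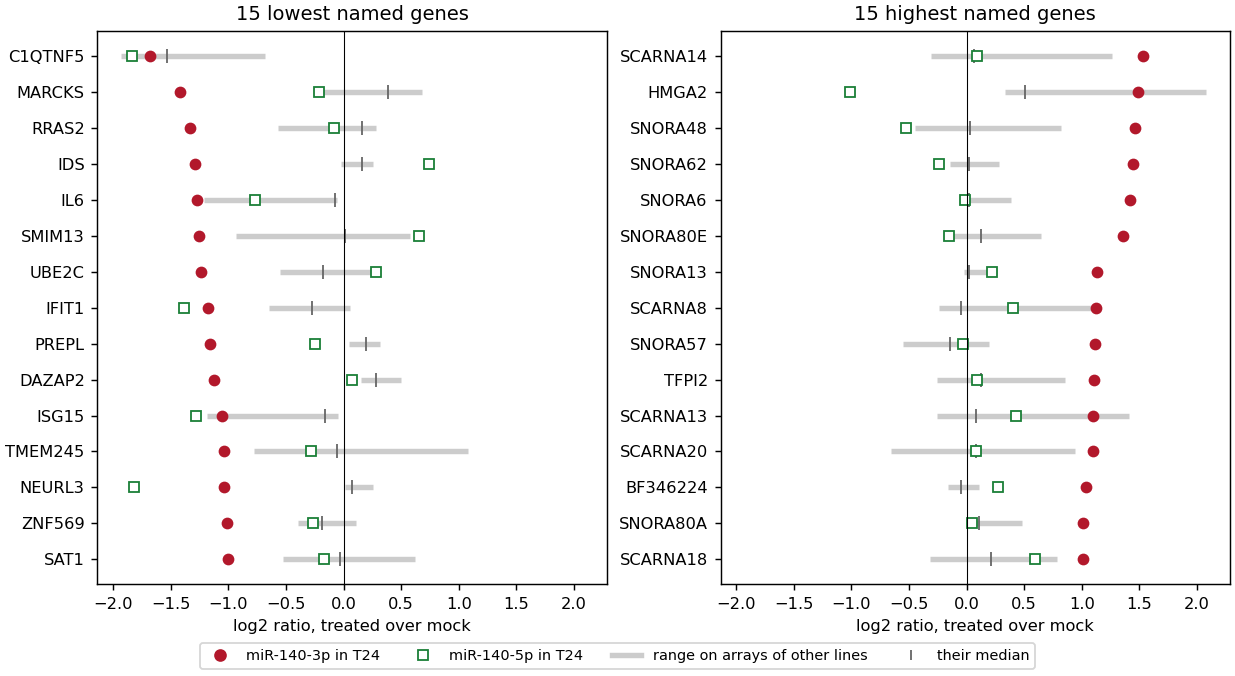
For the 15 lowest and the 15 highest named genes of the miR-140-3p array, red points give the log2 ratio on that array, open green squares the ratio with miR-140-5p in the same cells, grey bars the range on arrays of other lines and ticks its median. C1QTNF5 and ISG15 lie inside the grey range among the low genes, and HMGA2, SCARNA8 and SCARNA13 among the high ones.

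Genes whose probe holds the seed match were then read as a group. A 7-base match was present in the probes of 273 genes (0.630% of all genes), and 120 of these were measured. Their median ratio was −0.033, beside 0.017 over all genes, and 69 of them (57.5%) were below 0. Below −0.5 there were 7 genes (5.83%, against 1.09% of all measured genes), and above 0.5 there was 1 gene, SLC17A5 at 0.55. The 16 measured genes with the 8-base match had a median of −0.17, 11 of them were below 0, and 3 (18.8%) were below −0.5. The share of genes below −0.5 was thus larger with the match than over all genes, while most genes with the match lay close to 0; no test was made.

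The low genes with a match have varied functions. NEURL3, a ubiquitin ligase induced in inflammation, was at 491 in mock and 239 with miR-140-3p (−1.04), above 0 on the 4 other-line arrays that measured it, and still lower, at −1.82, with miR-140-5p. KIAA1147 (DENND11 in RefSeq), a DENN domain protein, was at 315 and 181 (−0.80), with −0.63 by a second probe and −0.08 with miR-140-5p. BCAS2, a splicing factor, had −0.76, but reached −1.02 on 1 array of another line. ARF5, a GTPase of the Golgi, was at 3026 and 1884 (−0.68). The zinc finger genes ZNF777 and ZNF226 had −0.57 and −0.54, and ZNF226 lay at 0.32 to 0.65 on the other lines. By a second probe ZNF777 had −0.34 and ZNF226 −0.31, both short of 0.5 in size. The second ZNF226 probe was about as bright as the first, at 504 against 469 in mock. Ratios of DSTN, which severs actin filaments, and CDCA8, a subunit of the chromosomal passenger complex, were both −0.44, short of 0.5 in size and within the range of the other lines. NEURL3 was the only one of the 15 lowest genes with the match in any of its probes.

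Other definitions of a match gave medians close to that of all genes, but not always the same share of low genes. Matches to bases 2 to 7 alone (TGTGGT, 423 genes) had a median of 0.003, as did those to bases 2 to 7 followed by A (TGTGGTA, 79 genes). A match shifted to bases 3 to 9 (CCTGTGG, 123 genes) had 0.017. The same letters read on the opposite strand (ACCACAG, 97 genes) had 0.033. Below −0.5 there were 14 genes (3.31%) for TGTGGT, 5 (6.33%) for TGTGGTA, 2 (1.63%) for the shifted match and 1 (1.03%) for the opposite strand, against 1.09% of all measured genes. These sets overlap in part, since CTGTGGT and TGTGGTA both contain TGTGGT. In all probes of the array, 0.607% hold CTGTGGT and 0.436% hold AACCACT, the match of miR-140-5p.

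**Figure D3:**
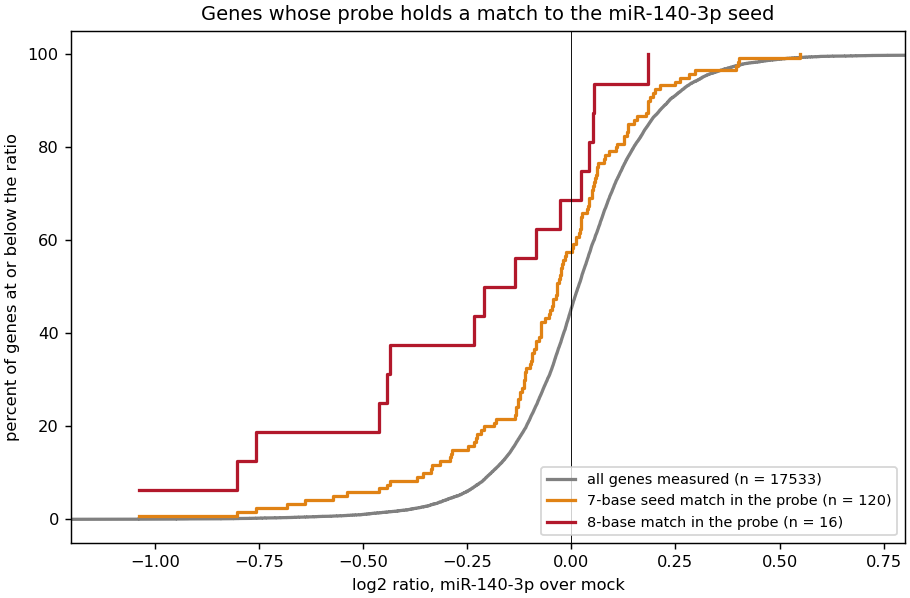
Each line gives the percent of genes (vertical axis) at or below a log2 ratio of miR-140-3p over mock (horizontal axis, cut at −1.2 and 0.8), for all 17533 measured genes, the 120 with the 7-base match in the probe and the 16 with the 8-base match, which are part of the 120. The 8-base line lies left of the others over most of the range, and the 7-base line lies between.

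The same search was made for the seeds of all 6 transfected miRNAs on all 8 arrays. For miR-140-3p the median of genes with the match minus that of all genes was −0.050 on its own array and −0.001 to 0.043 on the other 7. For miR-140-5p it was −0.096 on its own array, from 72 genes, and −0.034 on the miR-140-3p array. For miR-199-3p, miR-532-5p and miR-532-3p the differences on their own arrays were −0.14, −0.13 and −0.14. The difference on the own array was the lowest of the 8 for each of these 5 seeds. For miR-125b-1-3p, with 5 genes, it was −0.028, the second lowest. Among the 5 seeds with 60 or more genes, miR-140-3p had the smallest difference on its own array.

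**Figure D4:**
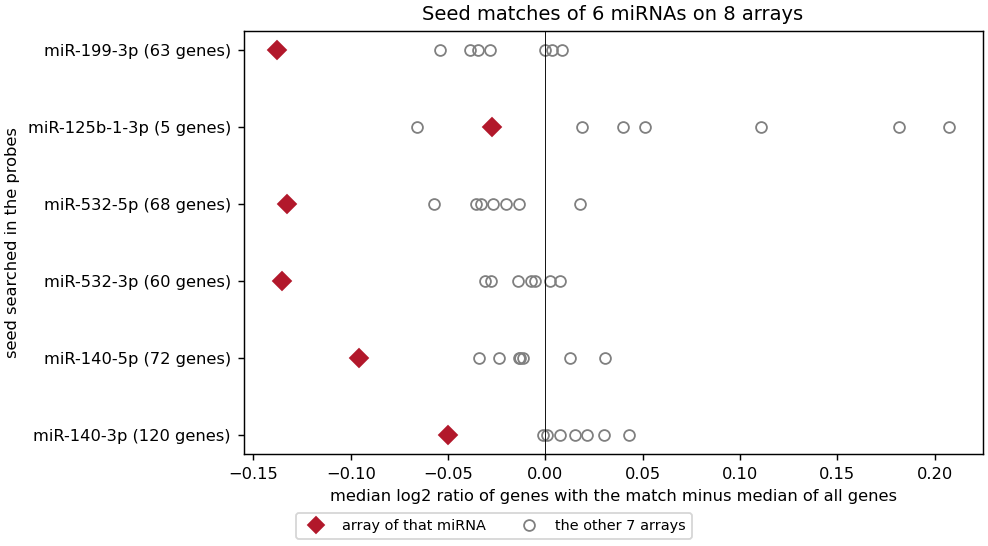
For each of 6 seeds (vertical axis), the median log2 ratio of genes with the match in the probe minus the median of all genes (horizontal axis) is plotted for the array of that miRNA (red diamond) and for the other 7 arrays (open circles). The red diamond of miR-140-3p lies at −0.050, left of all its circles and closer to them than those of miR-199-3p and both miR-532 strands.

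The high end of the array consisted mostly of small nucleolar and Cajal body RNAs. Of the 16 genes above 1.0, 8 were H/ACA small nucleolar RNAs (snoRNAs), which guide pseudouridylation of ribosomal RNA, and 5 were Cajal body RNAs (scaRNAs), which guide modification of spliceosomal RNA. The other 3 were HMGA2, TFPI2 and an expressed sequence tag on chromosome 6. SNORA48 had an intensity of 595 in mock and 1642 with miR-140-3p, a ratio of 1.46. SNORA62 went from 161 to 437 (1.44) and SNORA6 from 271 to 727 (1.42). With miR-140-5p these 3 had −0.52, −0.24 and −0.01, so they were high with 1 strand of the hairpin alone in the same cells. SCARNA14 had the highest ratio of the array, 1.53, with 127 in mock and 367 in transfected cells.

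Over the whole list, 87 of 97 H/ACA snoRNAs were measured, with a median of 0.29 and a range of −0.01 to 1.46. Of these, 24 (27.6%, against 0.998% of all measured genes) were above 0.5 and none below −0.5. Also above every array of another line were 23 of 86 (26.7%, against 0.745% of all genes). The list median was 0.15 with miR-140-5p and 0.02 to 0.14 on the other lines. Of 19 measured scaRNAs 10 were above 0.5, with a median of 0.55, beside 0.17 with miR-140-5p. On the other lines the median of the scaRNAs reached 0.51, and 6 of the 10 were above every one of those arrays. C/D snoRNAs, which guide methylation of ribose, had a lower median of 0.14 over 100 measured genes, and 5 were above 0.5. The H/ACA probes were dim, with a median mock intensity of 110, and copies of a snoRNA elsewhere in the genome can bind the same probe, so a signal may come from more than 1 locus.

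Most snoRNAs are cut from introns of host genes, so the hosts of some of the high small RNAs were read beside them. This selection was made after the snoRNA values were seen. Hosts of other small RNAs above 1.0, among them SCARNA14 and SNORA80E, were not read. SNORA48 and SNORA67 lie in EIF4A1, which encodes a helicase of translation initiation. They had 1.46 and 0.93, whereas SNORD10, a C/D snoRNA of the same host, had 0.25 and EIF4A1 itself −0.15. SNORA13 had 1.14, and its host EPB41L4A-AS1 had −0.18. SCARNA20 and SCARNA8 had 1.09 and 1.12, and their hosts USP32 and HAUS6 had −0.01 and −0.16. SCARNA13 went from 346 to 742, and its host SNHG10 had a ratio of 0.073. None of the hosts that were read was above 0.5. SNORA6 (chr3:39449956-39450015) and SNORA62 (chr3:39452639-39452698) lie in introns of the same gene, RPSA, whose level was not analysed here. Of 19 measured noncoding snoRNA host genes, 13 were below 0 (68.4%, against 45.4% of all measured genes), and SNHG12 and SNHG5 were lowest at −0.67 and −0.50. The list median was −0.14, beside −0.080 with miR-140-5p and within the −0.19 to 0.24 of the other lines.

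Messenger RNAs of histones that are made in S phase and lack a poly(A) tail were also high. Of 69 on the array 63 were measured, with a median of 0.27, and 56 were above 0 (54.6% of all measured genes were above 0). Above 0.5 there were 8 (12.7%, against 0.998% of all measured genes). Each of them was also above every array of another line (12.9% of 62, against 0.745% of all genes), where the list medians were −0.27 to 0.05. HIST1H2AG had 0.88, HIST2H3A 0.71 and HIST1H4C, the brightest of them, 0.56, from 13585 in mock to 19981. With miR-140-5p these had 0.56, 0.40 and 0.32, and the list median was 0.24. Histone messages were thus high on both T24 arrays, whose mock channels were nearly alike. Histone genes are near copies of each other, and a probe may read several. Of 31 S phase genes none was below −0.5, and RRM2 (0.59), CCNE2 (0.57) and GINS1 (0.51) were above 0.5 (9.68%, against 0.998% of all measured genes). With miR-140-5p these had −0.25, −0.46 and −0.78. The S phase list had a median of 0.055, against −0.37 with miR-140-5p. Of 35 mitosis genes 26 were above 0, with a median of 0.12, beside −0.037 with miR-140-5p and −0.63 to 0.055 on the other lines. UBE2C and MAD2L1 were below −0.5 (1.09% of all measured genes were) and none was above 0.5. MAD2L1, at −0.51, lay within the −0.80 to −0.12 of the other lines.

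Inflammatory cytokines and chemokines made up the lowest list, with a median of −0.40 over 20 measured genes of 24. Of these 20 genes, 8 were below −0.5 (1.09% of all measured genes were) and none was above 0.5. Below −0.5 and below every array of another line were 5 of 16 (31.2%, against 0.824% of all genes). IL6 was at 1100 in mock and 455 with miR-140-3p (−1.27), the neutrophil chemokine CXCL2 at 3909 and 2136 (−0.87), and CXCL3 at 228 and 129 (−0.82). On the 4 other-line arrays that measured it, IL6 had −1.21 to −0.06, the lowest with miR-532-5p in 786-O and close to its value here. CXCL2 and CXCL3 had −0.54 to 0.69 and −0.15 to 0.35 on the other lines. With miR-140-5p the list median was 0.089, and IL6 had −0.77, CXCL2 0.35 and CXCL3 −0.12. Within the list the strands lay furthest apart for CSF3, at −0.61 with the 3p strand and 2.70 with the 5p strand, and for CCL20, at −0.75 and 1.86, both picked after their values were seen. CXCL1, the brightest of the list, had −0.75 and 0.84, and CXCL8 had −0.61 and 0.07. The NF-κB feedback genes TNFAIP3 and NFKBIA had −0.50 and −0.43. IL1A, IL1B, IL24 and PTGS2 were not measured in both channels.

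Interferon-stimulated genes, which encode antiviral proteins, were below 0 in 25 of 25 measured members (45.4% of all measured genes were below 0), with a median of −0.24. Below −0.5 there were 4 (16%, against 1.09% of all measured genes), namely IFIT1 (−1.18), ISG15 (−1.05), MX1 (−0.70) and IFI6 (−0.66). All of them but ISG15, 3 of 25 (12%), were below every array of another line (0.824% of all genes were). IFIT1 was at 191 in mock and 84.1 with miR-140-3p, and ISG15 at 1510 and 728. With miR-140-5p the list median was −0.34 and IFIT1, ISG15, MX1 and IFI6 had −1.38, −1.28, −0.76 and −0.93. Medians on the other lines were −0.18 to 0.058. The genes were thus low on both T24 arrays, whose mock channels were nearly alike. The 16 other members, among them CXCL10, MX2, OAS1 and RSAD2, were not measured in both channels.

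**Figure D5:**
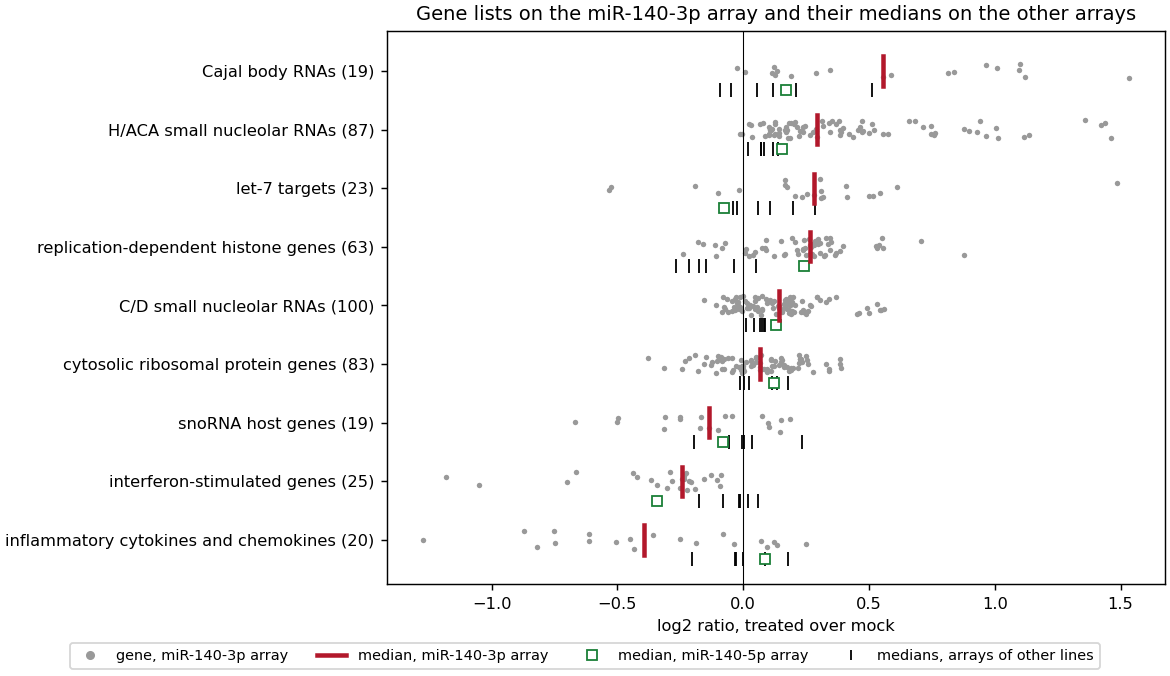
Grey points are the measured members of 9 gene lists (number in brackets) on the miR-140-3p array, placed by log2 ratio on the horizontal axis and scattered vertically for view; red bars give their median, green squares the median with miR-140-5p and ticks the medians on the 6 arrays of other lines. The red bars of H/ACA snoRNAs, scaRNAs and histone genes lie right of all ticks and those of cytokines and interferon-stimulated genes left of them; the bar of the let-7 targets lies beside its highest tick.

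HMGA2, a chromatin protein and a known target of the let-7 miRNAs, had 896 in mock and 2514 with miR-140-3p, a ratio of 1.49 (chr12:66359789-66359848). With miR-140-5p it had −1.01. Its ratios on 5 arrays of other lines were 0.33 to 2.08, the highest with miR-532-5p in 786-O, and its 2 dimmer probes gave 0.42 and 0.30 on the miR-140-3p array. HMGA2 was thus high on this array but within the range of the series. Of 23 measured let-7 targets 18 were above 0 (54.6% of all measured genes were), with a median of 0.28, beside −0.077 with miR-140-5p and −0.038 to 0.29 on the other lines. Above 0.5 there were 5 (21.7%, against 0.998% of all measured genes), and below −0.5 there were 2 (8.70%, against 1.09%). Only 1 of 22 (4.55%, against 0.745% of all genes) was above 0.5 and above every array of another line. DICER1, which cuts miRNA precursors, had 0.61, PLAGL2 0.54 and IGF2BP1 0.52, while MYC, on the same list, had −0.53. With miR-140-5p MYC was about as low, at −0.51, while DICER1 had −0.11 and PLAGL2 −0.27. TFPI2, a secreted protease inhibitor, was at 1443 in mock and 3113 with miR-140-3p (1.11), beside 0.089 with miR-140-5p.

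PIR (pirin), an iron-binding nuclear protein that the study follows elsewhere, was at 596 in mock and 945 with miR-140-3p, a ratio of 0.66. It was −0.73 with miR-140-5p and −0.62 to 0.12 on the other lines, which made the miR-140-3p array the only one of 8 above 0.5. PIR is a target of the antioxidant factor NRF2. The other 23 measured NRF2 targets had no member above 0.5, and the list had a median of −0.003. ABCC3, an export pump, had −0.66, with −0.26 by its second probe and −1.10 with miR-140-5p. Among 19 measured genes of the RAS family, RRAS2 and RASL10A (−0.62) were lowest and none was above 0.5, and the list median was −0.035. NRAS and RRAS, close relatives of the low genes, had 0.30 and 0.36.

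WWP2, the host gene of miR-140, had 120 in mock and 140 with miR-140-3p, a ratio of 0.22. NRIP1, a nuclear receptor corepressor that is often named as a miR-140-3p target, was dim at 83.1 and had −0.12. Its probe holds the 7-base seed match, and its ratio lay within the −0.34 to −0.11 of the other lines. CD38, another named target, was not well above background in either channel. HDAC4, a named target of miR-140-5p, had 0.036. Most of the other lists lay near 0. For p53 targets the median was −0.000, although GADD45A, a growth arrest gene, had −0.84, below all other-line values. GADD45A was nearly as low with miR-140-5p, at −0.76. Genes of TGF-β signalling had 0.005, with ID1 at −0.58 and the receptor TGFBR2 at 0.78. With miR-140-5p ID1 was lower still, at −0.88, and TGFBR2 had 0.046. Complex I genes had 0.018, hypoxia genes 0.017 and cytosolic ribosomal protein genes 0.065. The ATF4 stress response had −0.10, with TRIB3 and ATF3 at −0.80 and −0.61, both inside the range of the other arrays.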

How the data were processed

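Groups came from the labels: 1 array for miR-140-3p in T24, and 7 further arrays on the same slide and scan, so batches could not be compared. Agilent Feature Extraction 11.5.1.1 is the software named in the file headers. The mean spot intensity and median local background intensity that the authors deposited for each channel are linear and not normalized. The deposited log10 ratio and the series table, which held the same log10 values, are the scanner software's own, after background subtraction and dye normalization, and served as alternatives.

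Intensities were corrected with normexp (offset 50) and normalized by loess within each array in limma 3.58.1 (R 4.3.3), and these steps were tested on simulated data. Control spots were left out after background correction, as were 142 outlier spots of 60901, and no probe was saturated. The median raw signal was 23.6 in Cy3 and 20.3 in Cy5. Each gene took its brightest probe over the 8 arrays. Normalised intensities are channel values after Aquantile. A bound compares the bright channel with the dim channel's own signal or with the lowest signal well above background there, whichever is higher.

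Because no group had a replicate, genes were described by fixed sizes of the log2 ratio (1.0 and 0.5) and by position against the arrays of other lines (at least 3 measured), and precision is limited by the number of arrays. Symbols are the array's own. Of 43317 representing probes 21902 matched RefSeq (GRCh38.p14) by accession, as did 196 of 201 genes chosen for naming, 9 of them under another symbol. The genes named were the 15 lowest and 15 highest by ratio, the 10 lowest and 10 highest by difference from the other lines, the 5 at each end with a seed match, up to 3 at each end of 31 lists, genes with a bound of 2-fold or more, and a fixed set (PIR, ACTL8, C1QTNF5, WWP2, CD38, NRIP1, HDAC4, MARCKS, RRAS2, HMGA2 and KLK3). Symbols that look like unnamed transcripts were left out, which by its letters also left out BCAS2. Further genes were added after their values were seen: members of the named lists beyond 3, the small RNA hosts and BCAS2. Some genes that the rule names are not reported here. The members and lists were chosen with earlier results of these data known. Alternatives were other background corrections, median centring, the scanner's ratio, other filters, the mean over probes, other sizes, subtraction of the other lines' median and other definitions of a seed match.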

Additional observations from a re-analysis of the deposited data

How the results depend on the processing

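No paired analysis was possible because there was a single array of miR-140-3p. No fit with slide as a block was run, since all arrays lie on 1 slide. Counts of genes past 1.0 (15 lower and 16 higher) depended most on background correction and centring. They were 118 and 39 with plain subtraction, 32 and 24 without correction, 104 and 35 with an offset of 0, 214 and 53 with the scanner's ratio or the series table, and 1 and 1216 with median centring; the first 4 of these held all 31 genes past 1.0 and median centring 17 of them. The mean over probes gave 9 lower genes. A size of 1.5 gave 1 and 1, and 0.5 gave 191 and 175. Counts past 0.5 and beyond the other lines (135 and 122) were 524 and 420 with plain subtraction, 247 lower without correction, 517 and 370 with an offset of 0, 601 and 469 with the scanner's ratio or the series table, 4 and 3591 with median centring, and 13 and 13 at a size of 1.0. Median centring moved the median of all measured genes to 0.45, so signs under it are relative to that shift. It moved 22 lists past 0.2 in place of 6, and turned the medians of interferon-stimulated genes (0.11) and cytokines (0.073) and the ratios of CXCL2 (0.060), TRIB3 (0.20), ARF5 (0.22), SNHG12 (0.14), ID1 (0.40), ZNF777 (0.13), ZNF226 (0.13), MYC (0.25), MAD2L1 (0.18) and SNHG5 (0.33) above 0; all of these lie below the shifted median. MAD2L1 was also at 0.17 after subtraction of the other lines' median. In all, 689 of 700 values of the 70 named genes past 0.5 kept their direction. That count includes the wider filters, which could not change the value of a gene measured in both channels. It also counts the scanner's ratio and the series table separately, although they held the same values, so it overstates the agreement. The median of genes with the 7-base seed match (−0.033) was 0.36 with median centring, which is 0.096 under that setting's median of all genes at 0.45. It was −0.17 for the 8-base match, 0.017 for the shifted match and 0.033 for the opposite strand, and between −0.072 and −0.001 under the settings that kept loess or used the scanner's ratio. The causes of these changes were not tested. The number of arrays limits all of these values.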

Other observations

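Some further gene groups were read after the data had been seen, and their values are given without explanation. Transcripts of the mitochondrial genome were above 0 in 10 of 10 measured members (54.6% of all measured genes were), with a median of 0.50. The list median was 0.14 with miR-140-5p and −0.080 to 0.39 on the other lines. Of the 10 members, 4 were above 0.5 and above every array of another line (0.745% of all genes were). ND3, a subunit of respiratory complex I, was at 3355 in mock and 5935 with miR-140-3p (0.82), ND2 had 0.68 and COX2, the second subunit of cytochrome oxidase, 0.63. With miR-140-5p these 3 had 0.36, 0.41 and 0.073. Nuclear genes of complex I had a median of 0.018.

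Of 22 measured genes of the vacuolar ATPase, the proton pump of lysosomes, ATP6AP2 (−0.86, from 909 in mock to 500) and ATP6V1D (−0.80, from 270 to 155) were below −0.5. Both were also below every array of another line (9.52% of 21, against 0.824% of all genes). With miR-140-5p they had −0.12 and 0.16, and the list median was −0.049. Among 10 measured S100 genes, which encode calcium-binding proteins, 4 were above 0 and the median was −0.081. S100A2 had −0.97, at the lower edge of the other lines (−0.97 to 0.59), and S100A6 had −0.94, within their range of −0.99 to 0.35, beside −0.77 and −0.38 with miR-140-5p. Metallothioneins, which bind zinc and copper and whose near-identical copies share probes, had a median of 0.27, beside 0.69 with miR-140-5p. Of 9 measured structural noncoding RNAs, such as RN7SK and RMRP, all were above 0, with a median of 0.38, beside 0.33 with miR-140-5p and −0.026 to 0.59 on the other lines.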
